A study of Mus musculus with 2 samples.

Results

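The endothelial junction and surface genes described here are 10 genes that hold blood vessel cells together or mark their surface: Cldn5, Ocln, Jam2, F11r, Esam, Pecam1, Tjp1, Emcn, Cd34 and Egfl7, of 21884 genes counted. The list was drawn up by symbol and role, not by a cut on these values, but with earlier results of these data known. The genes were read as counts of unique molecular identifiers (UMIs, each standing for 1 captured mRNA molecule) per 1000000 UMIs (CPM). They were read in cells that carried 1 sample hashtag and Cdh5 mRNA. The study asked whether iSuRe-HadCre, an allele in which Cre is switched on and then off again in the cell that comes to express a Tomato reporter, deletes floxed genes as reliably as the older iSuRe-Cre allele, in which Cre expression persists. Cells labelled as heart or liver by antibody hashtags were run in 1 10x Genomics library. Each of the 6 groups below is thus 1 sample, no spread between animals is known, and no comparison carries a test.

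All mice were on a C57BL/6 background, received 40 mg/kg of 4-hydroxytamoxifen on postnatal day 3 and were dissected 3 days later, at an age of 6 to 7 days. The iSuRe-Cre and iSuRe-HadCre groups carried Cdh5-CreERT2, a tamoxifen-dependent Cre driven by the promoter of the endothelial cadherin Cdh5, and their Notch1 gene was deleted in the study; the labels do not name the Notch1 allele, and the genotype of the control group and the number of pups per group are not given in the sources used here. Live cells were sorted for CD31, which is the protein of Pecam1, and for the presence or absence of MbTomato. The groups held 254 cells of control heart, 435 of iSuRe-Cre heart, 311 of iSuRe-HadCre heart, 54 of control liver, 858 of iSuRe-Cre liver and 76 of iSuRe-HadCre liver, 1988 of the 14348 barcodes that passed the quality limits. Since CD31 protein chose the cells and Cdh5 mRNA chose them again, the presence of Pecam1 in these cells is not a finding, and only its level is compared. Cdh5 itself stood at 0.745 of control CPM in iSuRe-Cre heart and 0.685 in iSuRe-Cre liver. For iSuRe-HadCre it stood at 0.955 in heart and 0.855 in liver. These levels are given for context only, because a limit on Cdh5 chose the cells.

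Endothelial cells line vessels as a single sheet and seal the gaps between them with junctions. In tight junctions, claudins such as Cldn5 and occludin (Ocln) span the membrane, immunoglobulin-fold proteins such as Jam2, F11r and Esam join cells by binding across the gap, and the scaffold Tjp1 (ZO-1) ties them to actin. Pecam1 is an adhesion receptor of the cell border, Emcn and Cd34 are sialomucins of the outer surface, and Egfl7 is secreted into the matrix around the vessel. Heart capillaries are lined by a continuous endothelium, whereas the sinusoids of the liver have a porous one with sparse tight junctions.

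The groups differed in what they held, and the levels below are sums over all cells of a group. Summed UMIs ran from 624048 in control liver to 9341120 in iSuRe-Cre liver, and the median cell had 7322 to 9100 UMIs in 5 groups but 16379 in iSuRe-Cre heart. The transcript Notch1 stood at 138 CPM in control heart against 12.7 for iSuRe-Cre and 23.2 for iSuRe-HadCre heart. It was at 160.2 in control liver against 21.4 and 30.8, lower in each iSuRe group. WPRE, a sequence of the transgenes, was at 562 in control heart and 396 in control liver, against 63.5 and 105 in the iSuRe-Cre and 1055 and 1070 in the iSuRe-HadCre groups, beside 160.4 in free RNA and 78.7 in cells without Cdh5, so the groups labelled control were not free of transgene RNA. Of the 10 sinusoidal markers, Dnase1l3 was at 0 in control liver, where the list summed to 728 CPM, against 5612 for iSuRe-Cre and 1467 for iSuRe-HadCre liver and 1056 in free RNA (barcodes with 10 to 100 UMIs). Stab2, the hyaluronan receptor of sinusoids, was at 30.4, 1446 and 386 CPM in control, iSuRe-Cre and iSuRe-HadCre liver. The 3 heart groups summed to 427 to 673, of which the broadly expressed protease gene Ctsl alone gave 308 to 539.9. Control liver was above control heart in 8 of the other 9 markers, for example Stab1 at 154 against 54.1 and Lyve1 at 73.7 against 14.5 CPM. The liver comparisons set groups of unlike makeup side by side.

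Clustering of all barcodes that passed the limits, without the 10 genes, Cdh5 and the transgenes, gave 9 clusters in which more than 80% of barcodes passed the Cdh5 limit, a limit on clusters chosen after their values were seen. They held 89.8% of control heart, 85.1% of iSuRe-Cre heart and 84.6% of iSuRe-HadCre heart cells, and 81.5%, 70.3% and 73.7% of the same genotypes in liver. Of the cells outside them, 109 lay in a cluster led by cartilage genes (Col9a3, Matn4, Col2a1) and 29 in a neutrophil-like cluster. Another 58 lay in a cluster led by Ccl21a, haemoglobin genes and capillary endothelial markers (Gpihbp1, Fabp4). In that cluster 77.3% of barcodes passed the Cdh5 limit, just short of the 80% asked for. Below 6851 UMIs per cell, 1 Cdh5 UMI is enough to pass, and 73 of 858 iSuRe-Cre liver cells passed with 1 UMI against 2 of 54 in control liver. Neutrophil markers (8 genes, summed) stood at 3520 CPM in iSuRe-Cre liver, 596 in control liver with Elane and Lcn2 at 0, and 45.4 in iSuRe-HadCre liver with Ltf and Mpo at 0. Hepatocyte markers (10 genes) summed to 936 in iSuRe-Cre heart against 151 in control and 122 in iSuRe-HadCre heart. In liver they summed to 767.5 for iSuRe-Cre, 121.8 for control and 89.3 for iSuRe-HadCre cells, beside 6072 in free RNA. Ccl21a was at 111 CPM in iSuRe-Cre heart and 139 in iSuRe-Cre liver, against 0 to 0.66 in the other groups. RNA of other cells thus differed between the iSuRe-Cre groups and the others in both tissues, and its source was not tested. The values within the endothelial clusters are given beside the results, and no other measure of what these cells contribute was made.

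**Figure D1:**
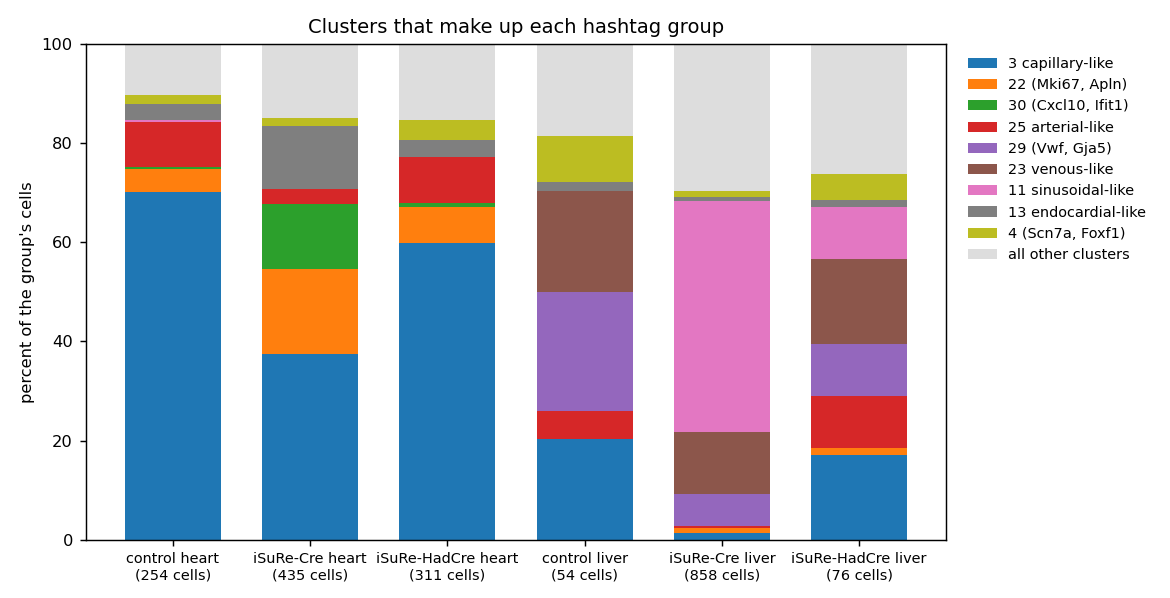
Bars give the percent of each hashtag group's cells (y axis) in the 9 endothelial clusters and, in light grey, in all others; clusters are given by number and name or leading genes. The capillary endothelial-like cluster held 70.1% of control heart cells and 37.5% of iSuRe-Cre heart cells, and the sinusoidal endothelial-like cluster held 46.7% of iSuRe-Cre liver cells and 0 of 54 control liver cells.

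Shares of cells per cluster describe what each sum holds and may also reflect the sort and the recovery of cells, which was not tested, so they are not reported as a change in the tissue. In liver the sinusoidal endothelial-like cluster (led by Stab2, Dnase1l3 and Clec4g) held 401 of 858 iSuRe-Cre cells, 8 of 76 iSuRe-HadCre cells and 0 of 54 control cells, and a count of 0 of 54 allows a share of up to 6.6%. In iSuRe-Cre heart, 57 of 435 cells lay in a cluster led by interferon-response genes (Rsad2, Cxcl10, Ifit1) that held 1 of 254 control and 2 of 311 iSuRe-HadCre heart cells, and 75 lay in a cluster led in part by cell-cycle genes (Mki67, Prc1).

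As a background for the levels, the 6030 cells of the same library without a Cdh5 UMI were used. Since Cdh5 chose the groups and its absence chose these cells, a higher level of an endothelial gene in the groups follows from the choice and is not a result. Egfl7 was found outside these cells as well, at 94.9 in cells without Cdh5 and 524 in free RNA against 766 to 1052 in the groups. The median cell held UMIs of 9 of the 10 genes in control and iSuRe-Cre heart, 8 in iSuRe-HadCre heart, 7.5 in control liver and 7 in the induced livers, against 2 in cells without Cdh5. With every cell thinned to 2000 UMIs the order of the hearts turned, with a mean of 5.23 genes for control, 4.58 for iSuRe-Cre and 5.28 for iSuRe-HadCre cells. In the following, ranges in parentheses are exact 95% intervals of the summed count, which cover counting error only, and groups are called apart when these intervals do not overlap.

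**Figure D2:**
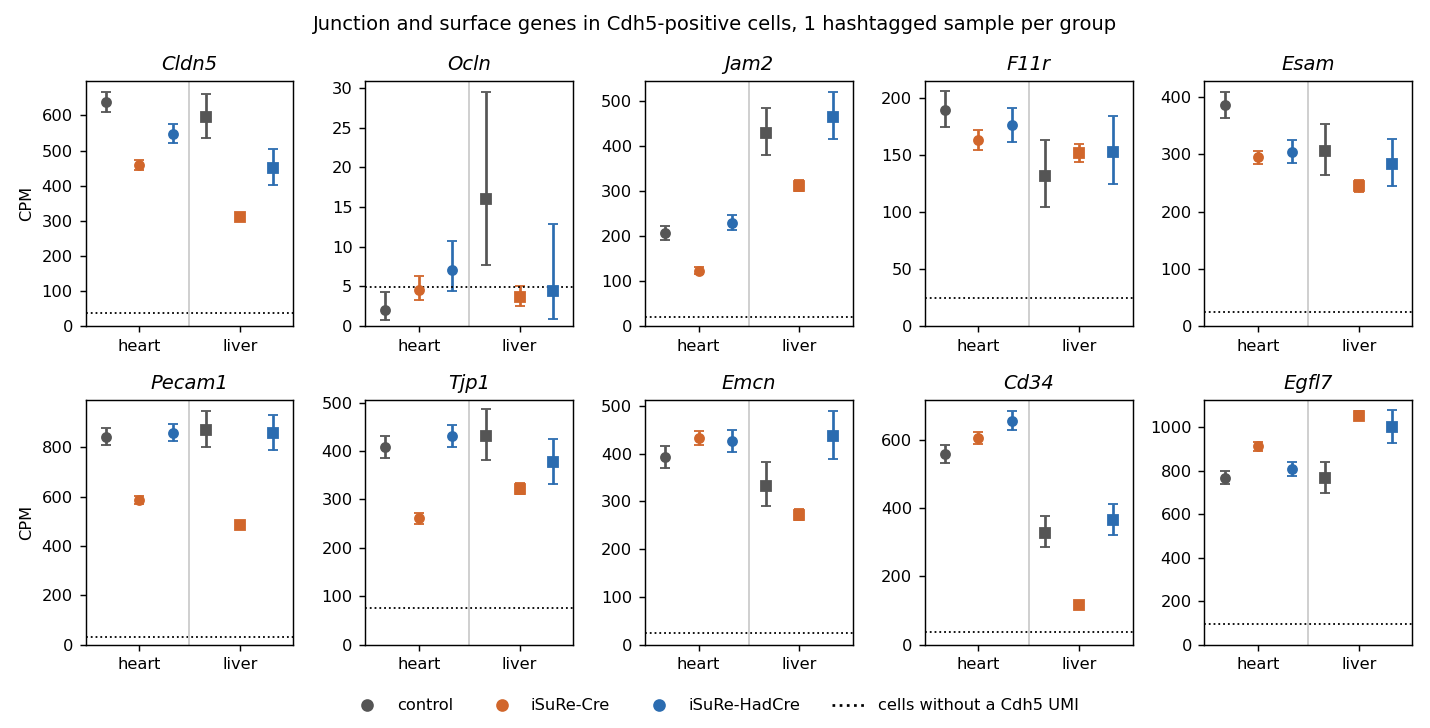
CPM of each gene (y axis, linear from 0) in control (grey), iSuRe-Cre (orange) and iSuRe-HadCre (blue) cells of heart (circles) and liver (squares), with exact 95% intervals for counting error; the dotted line is the level in cells without a Cdh5 UMI. The orange points lie below the other heart points for Pecam1, Jam2, Tjp1 and Cldn5 and above the control point for Egfl7, and Ocln lies near the dotted line.

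Cldn5, the main claudin of tight endothelium (chr16:18776847-18778262, plus strand, GRCm38), was highest in the control groups. In heart it was at 638 (609.5 to 667) CPM for control, 459 (445 to 474) for iSuRe-Cre and 548 (523 to 575) for iSuRe-HadCre cells. In liver the levels were 596 (537 to 659.9), 309.8 (299 to 321) and 451 (402 to 504) in the same order. In order of level the intervals of control heart and control liver overlapped, as did those of control liver and iSuRe-HadCre heart and of iSuRe-Cre heart and iSuRe-HadCre liver, while iSuRe-Cre liver stood apart below all. Against control the ratio was 0.72 (0.682 to 0.761) for iSuRe-Cre and 0.86 (0.805 to 0.919) for iSuRe-HadCre heart, and 0.52 (0.466 to 0.581) and 0.756 (0.648 to 0.882) in liver. The share of cells with a Cldn5 UMI, after each cell was thinned to 2000 UMIs, was 64.4% for control, 49.5% for iSuRe-Cre and 55.7% for iSuRe-HadCre heart (92.5%, 82.1% and 81.3% unthinned), against 17% in cells without Cdh5 (27.3% unthinned).

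Ocln, another membrane protein of tight junctions (chr13:100496507-100552718, minus strand), was close to absent from these cells at this depth. It gave 6, 38 and 22 UMIs in all of control, iSuRe-Cre and iSuRe-HadCre heart, that is 1.98 (0.727 to 4.31), 4.58 (3.24 to 6.28) and 7.09 (4.44 to 10.7) CPM. In liver it gave 10, 34 and 3 UMIs, or 16 (7.68 to 29.5), 3.64 (2.52 to 5.09) and 4.39 (0.906 to 12.8) CPM. Cells without Cdh5 had 4.92 and free RNA 8.67 CPM, so that only control liver was clearly above the cells without Cdh5, and 6 of its 10 UMIs came from 1 cell. With 113 UMIs over the 6 groups it missed the minimum of 200, and no ratio is given.

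Jam2 (JAM-B, chr16:84774123-84825928, plus strand), an adhesion protein of endothelial borders that leukocytes also bind, was higher in all 3 liver groups than in all 3 heart groups. In heart it was at 207 (191 to 223) CPM for control, 123 (116 to 131) for iSuRe-Cre and 229.5 (213 to 247) for iSuRe-HadCre cells. In liver the values were 429.5 (379.6 to 484), 312 (301 to 324) and 466 (416 to 519.7). The iSuRe-HadCre and control groups of a tissue overlapped and the iSuRe-Cre group was below both, in heart as in liver. Liver over heart was 2.08 (1.79 to 2.4) for control, 2.53 (2.35 to 2.72) for iSuRe-Cre and 2.03 (1.77 to 2.32) for iSuRe-HadCre cells, and iSuRe-Cre over control was 0.598 (0.54 to 0.661) in heart and 0.727 (0.641 to 0.827) in liver. With hashtags called by HTODemux instead, the liver ratio was 1.28 and the iSuRe-HadCre liver over heart ratio 0.951, on the other side of 1.

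F11r (JAM-A, chr1:171437535-171464603, plus strand), which is shared by endothelial and epithelial junctions, varied least among the JAM family. Heart levels were 189.8 (175 to 206) CPM for control, 163 (155 to 172) for iSuRe-Cre and 176 (162 to 192) for iSuRe-HadCre cells. Liver levels were 131 (104 to 163), 152 (144 to 159.8) and 152 (124 to 184). When the 6 groups were put in order, every neighbouring pair overlapped. Of the comparisons within a tissue, only iSuRe-Cre against control heart had an interval that left out 1, at 0.861 (0.781 to 0.951).

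Esam (chr9:37528078-37538319, plus strand), an immunoglobulin-fold protein of endothelial tight junctions and platelets, was highest in control heart. It was at 386 (364 to 409) CPM there, against 295 (283 to 307) for iSuRe-Cre and 304 (285 to 325) for iSuRe-HadCre heart. In liver it was at 306 (264 to 353) for control, 245 (235 to 255) for iSuRe-Cre and 284 (246 to 327) for iSuRe-HadCre cells. Control heart stood apart from the other 5 groups, whose neighbours in order overlapped. The iSuRe-Cre and iSuRe-HadCre hearts overlapped, with iSuRe-HadCre over iSuRe-Cre at 1.03 (0.957 to 1.11). Each was below control, at 0.763 (0.712 to 0.819) and 0.789 (0.723 to 0.86).

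Pecam1 (CD31, chr11:106654217-106750628, minus strand) was lower in the iSuRe-Cre groups than in the other 4. Control and iSuRe-HadCre cells lay between 844 and 872 CPM in either tissue: 844 (812 to 877) and 859.5 (827 to 893) in heart, 872 (800.0 to 948) and 858 (789.9 to 930.4) in liver, all overlapping. The iSuRe-Cre groups were below them, at 586 (569 to 602) in heart and 485 (471 to 499) in liver. Against control the iSuRe-Cre ratios were 0.694 (0.661 to 0.728) and 0.556 (0.509 to 0.609), and the iSuRe-HadCre ratios were 1.02 (0.964 to 1.08) and 0.984 (0.874 to 1.11). In heart the lower level was a lower share of a larger total: iSuRe-Cre cells held 11.2 Pecam1 UMIs each on average and control cells 10.1, a ratio of 1.11 per cell, while all UMIs per cell stood in a ratio of 1.6.

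Tjp1 (chr7:65296165-65527781, minus strand), the ZO-1 scaffold found beneath junctions of most cell types, was also found in cells without Cdh5, at 75.1 CPM. In heart it was at 408 (385 to 431) for control, 261 (249.7 to 272) for iSuRe-Cre and 431 (408 to 454) for iSuRe-HadCre cells. In liver it was at 431 (381 to 486), 322 (311 to 334) and 376 (332 to 425). Control of both tissues and both iSuRe-HadCre groups overlapped in order, iSuRe-Cre liver overlapped with iSuRe-HadCre liver, and iSuRe-Cre heart was below all. The ratio to control was 0.639 (0.596 to 0.686) in iSuRe-Cre heart and 0.748 (0.66 to 0.85) in iSuRe-Cre liver, against 1.06 (0.977 to 1.14) and 0.873 (0.733 to 1.04) for iSuRe-HadCre.

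Emcn (endomucin, chr3:137341067-137432185, plus strand), a surface mucin of capillaries and veins that hinders leukocyte adhesion, did not follow the genotype order of the junction genes in heart. Heart levels were 392 (370.4 to 415) CPM for control, 433 (419 to 447) for iSuRe-Cre and 426 (403 to 449) for iSuRe-HadCre cells. Liver levels were 333 (289.5 to 382), 272 (262 to 283) and 438 (389.6 to 490.3). The 3 heart groups overlapped in order, and iSuRe-Cre liver stood below every other group. Against control, iSuRe-Cre was at 1.1 (1.03 to 1.18) in heart and at 0.817 (0.709 to 0.946) in liver.

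Cd34 (chr1:194938819-194961279, plus strand), a sialomucin of capillary and progenitor cell surfaces, had the widest range over the groups of the 9 members with enough counts. In heart it was at 560.4 (534 to 588) CPM for control, 607 (590.4 to 624) for iSuRe-Cre and 658 (629.8 to 687) for iSuRe-HadCre cells. In liver it was at 328 (285 to 377), 116 (109 to 123) and 365 (321 to 413). All heart groups were above all liver groups and stood apart from each other, control and iSuRe-HadCre liver overlapped, and iSuRe-Cre liver was apart and lowest. Liver over heart was 0.586 (0.505 to 0.678) for control, 0.192 (0.179 to 0.204) for iSuRe-Cre and 0.554 (0.484 to 0.632) for iSuRe-HadCre cells. After thinning to 2000 UMIs, 15.6% of iSuRe-Cre liver cells had a Cd34 UMI, against 36.5% in control and 41.9% in iSuRe-HadCre liver and 13% in cells without Cdh5; unthinned, the shares were 38%, 64.8%, 69.7% and 24.7%, at medians of 8765, 7980, 7384 and 6418 UMIs per cell.

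The 250 bases before the annotated start are shown for Cd34 and Emcn, the sialomucins, and for Cldn5, because these 3 members, Ocln apart, ranged most from cluster to cluster among those with an entry and endothelial genes are known to be read by ETS factors. Capitals mark AGGAAG or CGGAAG, 6-letter forms of the ETS site, on either strand (AGGAAG reads CTTCCT on the other strand), and the sequences are RefSeq entries on GRCm38.p6, plus strand, 5′ to 3′, at chr1:194938571-194938820, chr3:137340828-137341077 and chr16:18776597-18776846.
Cd34 promoter: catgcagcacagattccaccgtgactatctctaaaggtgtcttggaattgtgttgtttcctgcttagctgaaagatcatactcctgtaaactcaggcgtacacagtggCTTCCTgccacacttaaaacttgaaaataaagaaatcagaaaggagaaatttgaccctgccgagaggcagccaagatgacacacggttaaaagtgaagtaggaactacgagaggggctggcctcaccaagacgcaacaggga
Emcn promoter: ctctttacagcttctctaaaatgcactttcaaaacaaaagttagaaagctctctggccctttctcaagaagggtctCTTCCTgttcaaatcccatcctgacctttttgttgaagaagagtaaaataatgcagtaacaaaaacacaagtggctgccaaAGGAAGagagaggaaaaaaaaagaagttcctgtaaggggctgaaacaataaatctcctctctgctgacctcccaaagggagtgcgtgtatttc
Cldn5 promoter: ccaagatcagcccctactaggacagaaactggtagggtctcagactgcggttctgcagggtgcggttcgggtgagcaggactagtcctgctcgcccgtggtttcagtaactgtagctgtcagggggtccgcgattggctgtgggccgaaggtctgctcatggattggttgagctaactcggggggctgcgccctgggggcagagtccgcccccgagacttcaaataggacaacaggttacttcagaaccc
The Cd34 window held 1 match, 142 bases before the start, the Emcn window held 2, and the Cldn5 window held none of these letters. Of the 10 entries found for 7 of the 10 genes, 5 entries of 4 genes (Cd34, Egfl7, Emcn and Tjp1) held a match, where 39.2% of all 32851 promoter windows of this length did; the matches are a description of the letters only.

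Egfl7 (chr2:26580014-26593120, plus strand), a secreted protein of endothelial cells, was the only member that was higher in iSuRe-Cre than in control cells of both tissues with intervals apart. In heart it was at 768 (737 to 800.2) CPM for control, 911 (891 to 932) for iSuRe-Cre and 805 (774 to 838) for iSuRe-HadCre cells. In liver it was at 766 (699 to 838), 1052 (1032 to 1073) and 1000 (926 to 1078). iSuRe-Cre over control was 1.19 (1.13 to 1.24) in heart and 1.37 (1.25 to 1.51) in liver, and iSuRe-HadCre over control was 1.05 (0.99 to 1.11) and 1.31 (1.16 to 1.47). The gene lies 63.4 kb from Notch1 on chromosome 2, the gene deleted in the study. Its introns hold Mir126a, whose mature product miR-126a-3p is a known endothelial microRNA made from the same primary transcript; the hairpin lay outside the exons of the coding Egfl7 transcripts, and the mature RNA (chr2:26591402-26591423, plus strand, RefSeq on GRCm38.p6) is shown with its seed, bases 2 to 8, in capitals. The library counts polyadenylated mRNA, so the microRNA itself was not measured.
mmu-miR-126a-3p: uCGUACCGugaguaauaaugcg

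The heart comparisons hold no member past the rule of size, which asks for levels at least 2-fold apart after 10 CPM are added to each, among genes with at least 200 UMIs over the groups; 9 of the 10 members and 9742 genes in all qualified. Against control heart, iSuRe-Cre heart was lower in Pecam1, Cldn5, Esam, Jam2, F11r and Tjp1 and higher in Emcn, Cd34 and Egfl7, each with an interval of the ratio that left out 1. The median log2 difference over the 9 was -0.38 against -0.05 over all genes tested. None of the 9 members was at least 2-fold higher or lower, beside 1.78% and 0.862% of all genes. The junction proteins and their scaffold were on the lower side and the surface mucins and the secreted protein on the higher side, a split that was seen after the values were known. These are shares of the UMIs of a group: per cell, where iSuRe-Cre heart held 1.6 times the UMIs of control, the ratio was 1.11 for Pecam1, 1.15 for Cldn5, 1.22 for Esam, 1.38 for F11r, 1.02 for Tjp1 and 0.956 for Jam2, so 5 of the 6 were not lower per cell. Within the 9 endothelial clusters the ratios of CPM were 0.684 for Pecam1, 0.616 for Tjp1, 0.578 for Jam2 and 0.706 for Cldn5.

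By share of UMIs over all cells of the group, iSuRe-HadCre heart lay closer to control than iSuRe-Cre heart did in these genes except Cd34. Cd34 stood at 1.17 in iSuRe-HadCre and 1.08 in iSuRe-Cre heart. Only Cldn5, at 0.86 (0.805 to 0.919), and Esam, at 0.789 (0.723 to 0.86), were lower with an interval below 1, and Emcn and Cd34 were higher, at 1.08 (1.002 to 1.17) and 1.17 (1.1 to 1.25), although Emcn was at 0.997 under median of ratios scaling and Cldn5 at 1.02 within the 9 endothelial clusters. The median log2 difference was 0.07 against 0.09 over all genes, and 0 of 9 members were at least 2-fold higher or lower, beside 1.13% and 0.185% of all genes. Per cell, where iSuRe-HadCre heart held 0.836 times the UMIs of control, all ratios were below 1, from 0.66 for Esam to 0.982 for Cd34. Within the 9 endothelial clusters the ratios of CPM to control ran from 0.904 for Esam to 1.38 for Cd34, with Pecam1 at 1.2 and Jam2 at 1.26. There Cd34, Emcn and Egfl7 lay further from control than in iSuRe-Cre heart, at 1.381, 1.234 and 1.204 against 1.055, 1.064 and 1.136. Set directly against iSuRe-Cre heart, iSuRe-HadCre heart was higher in Jam2, at 1.86 (1.69 to 2.05), Tjp1, at 1.65 (1.54 to 1.77), Pecam1, at 1.47 (1.4 to 1.54), Cldn5 and Cd34, and lower in Egfl7, at 0.884 (0.845 to 0.925), although Cd34 was at 0.951 under median of ratios scaling and Egfl7 at 1.06 within the endothelial clusters, where Jam2, at 2.17, passed the rule. The median was 0.11 against 0.14 over all genes, and 0 of 9 members reached 2-fold in either direction, beside 1.64% higher and 0.883% lower of all genes. These too are shares of the UMIs of a group, and an iSuRe-HadCre heart cell held 0.523 times the UMIs of an iSuRe-Cre heart cell. The per-cell ratio was 0.972 for Jam2, 0.864 for Tjp1, 0.767 for Pecam1, 0.624 for Cldn5 and 0.567 for Cd34. None of these was higher per cell.

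**Figure D3:**
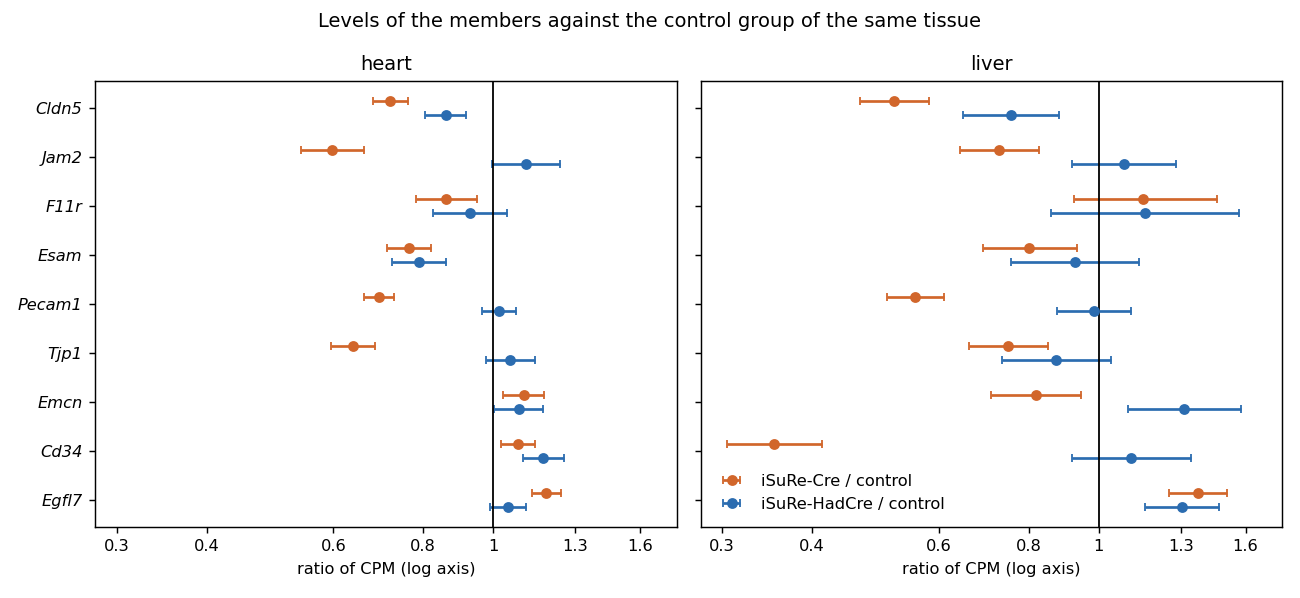
Ratio of CPM to control of the same tissue (x axis, log scale) for the 9 members with enough counts, iSuRe-Cre in orange and iSuRe-HadCre in blue, with exact conditional 95% intervals for counting error. In heart the orange points run from 0.598 for Jam2 to 1.19 for Egfl7 and the blue points from 0.789 for Esam to 1.17 for Cd34; in liver the orange Cd34 point is lowest, at 0.354.

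In liver, iSuRe-Cre cells were lower than control cells in 7 of 9 members and higher in Egfl7 and F11r, the last with an interval that held 1. Cd34 was the member at least 2-fold lower, at 0.354 (0.305 to 0.413), so 1 of 9 was lower and 0 higher, beside 3.13% and 2.76% of all genes; Cldn5 and Pecam1 followed at 0.52 and 0.556. The median log2 difference was -0.41 against -0.06 over all genes. iSuRe-HadCre liver had 0 of 9 members at least 2-fold from control, beside 1.43% higher and 1.8% lower of all genes, with Emcn and Egfl7 higher at 1.31 (1.1 to 1.57) and 1.31 (1.16 to 1.47), Cldn5 lower at 0.756 (0.648 to 0.882) and a median of 0.11 against 0.00. Between the iSuRe livers, Cd34 was higher in iSuRe-HadCre at 3.14 (2.72 to 3.6). Thus 1 of 9 was at least 2-fold higher and 0 lower, beside 2.26% and 1.97% of all genes. In CPM, Pecam1, Emcn, Jam2, Cldn5 and Tjp1 were higher by less. The median was 0.53 against 0.05. These are shares of the UMIs of a group. Per cell, where iSuRe-HadCre liver held 0.778 times the UMIs of control, Emcn stood at 1.021, Egfl7 at 1.015 and Cldn5 at 0.588. Per cell against iSuRe-Cre liver, at 0.825 times its UMIs, Cd34 stood at 2.59 and Tjp1 at 0.964. Pecam1, Emcn, Jam2 and Cldn5 stood at 1.46, 1.33, 1.23 and 1.2 there. These livers differ in sinusoidal and blood cell RNA as given above, so a lower level per cell and another mix of cells cannot be told apart from the sums. Within the 9 endothelial clusters iSuRe-Cre over control was 0.295 for Cd34 and 0.529 for Pecam1. With HTODemux calls, Esam, Jam2 and Emcn in iSuRe-Cre and Cldn5 in iSuRe-HadCre liver were above control, at 1.09, 1.28, 1.06 and 1.21.

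Liver against heart set 2 tissues side by side within a genotype. In control cells Jam2 was at least 2-fold higher in liver and no member lower, 1 and 0 of 9 beside 4.26% and 1.57% of all genes. In iSuRe-Cre cells Jam2 was higher and Cd34 lower, 1 of 9 each, beside 4.3% and 2.35%. Per cell, where iSuRe-Cre liver held 0.57 times the UMIs of iSuRe-Cre heart, Jam2 stood at 1.44 and Cd34 at 0.109. In iSuRe-HadCre cells 0 of 9 passed in either direction, beside 2.31% higher and 1.76% lower, with Jam2 just short of the rule at a log2 difference of 0.99. The medians were -0.10, -0.26 and -0.10 in control, iSuRe-Cre and iSuRe-HadCre cells against 0.09, 0.08 and 0.00 over all genes. Pecam1 was within its counting error between tissues in control cells, at 1.03 (0.94 to 1.13), and in iSuRe-HadCre cells, at 0.998 (0.911 to 1.09), and lower in liver in iSuRe-Cre cells, at 0.828 (0.795 to 0.863). Cldn5 was lower in liver in iSuRe-Cre and iSuRe-HadCre cells, at 0.674 (0.642 to 0.708) and 0.822 (0.726 to 0.929). The iSuRe-HadCre ratio was 1.19 with HTODemux calls.

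Other genes of the same roles gave the context. Of 28 other junction genes, 18 had enough counts; against control, 3 were at least 2-fold lower in iSuRe-Cre heart (Ptprb, Gja4 and Gja5) and 0 in iSuRe-HadCre heart, and 3 were lower in iSuRe-Cre liver (Nectin3, Gja4 and Gja5) and 1 in iSuRe-HadCre liver (Gja5), with none higher. Of all genes, 0.862% and 0.185% were lower in these hearts and 3.13% and 1.8% in these livers. Gja5, the connexin 40 of arterial gap junctions, was the gene of these lists that was at least 2-fold lower in both iSuRe groups of a tissue. It was at 101 CPM for control liver, 14.8 for iSuRe-Cre and 35.1 for iSuRe-HadCre liver, and at 20.5, 2.77 and 24.5 in heart. Ptprb (VE-PTP), the phosphatase that keeps Cdh5 junctions closed, was at 547, 191 and 525 in heart and 1413, 1203 and 1076 in liver. Its iSuRe-Cre heart level was the lowest of the 6, as it was for Jam2 and Tjp1. A cluster led by Vwf, Adgrg6 and Gja5 held 13 of 54 control, 56 of 858 iSuRe-Cre and 8 of 76 iSuRe-HadCre liver cells. The arterial endothelial-like cluster (Sox17, Gja4) held 23 of 254 control, 13 of 435 iSuRe-Cre and 29 of 311 iSuRe-HadCre heart cells. In liver that cluster held 3 control, 3 iSuRe-Cre and 8 iSuRe-HadCre cells. The part of these shares in the Gja4 and Gja5 levels was not tested.

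Of 26 other endothelial surface genes, all had enough counts; in iSuRe-Cre heart 1 (Bst2) was at least 2-fold higher than control and 0 lower, and in iSuRe-HadCre heart 0 passed. In liver, iSuRe-Cre had 1 higher (Bst2) and 4 lower (Podxl, Cdh13, Cd200 and Ly6c1), and iSuRe-HadCre had 0. The shares of all genes were 1.78% higher and 0.862% lower in iSuRe-Cre heart and 2.76% and 3.13% in iSuRe-Cre liver. For iSuRe-HadCre they were 1.13% higher and 0.185% lower in heart and 1.43% and 1.8% in liver. Between tissues, the leukocyte receptors Selp (P-selectin) and Sele (E-selectin) and the diaphragm protein Plvap were higher in liver in all 3 genotypes. Selp was at 131, 135 and 61.5 CPM in control, iSuRe-Cre and iSuRe-HadCre liver and at 1.98, 6.14 and 1.93 in heart. Plvap was at 341, 276 and 366 in liver and 32, 59 and 20.6 in heart. Ly6c1, a surface antigen of capillaries, was, like Cd34, lower in each liver group than in each heart group, at 200.3, 89.2 and 321 in liver and 633, 579 and 733 in heart.

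Across the 9 endothelial clusters the members did not vary together, and each cluster had its own set of high and low members, given here as a description. Cldn5 ranged from 65.2 CPM in the venous endothelial-like cluster (led by Rspo3, Selp and Vwf) and 133 in the endocardial-like cluster (Npr3, Tmem108) to 1648 in cluster 4, an unnamed cluster led by Scn7a, Tmem100 and Foxf1. Of the 762 cells of cluster 4 that passed the Cdh5 limit, 716 carried no hashtag, so the tissue of most of them is not known. Jam2 was highest where Cldn5 or Emcn was lowest: 1020 in an unnamed cluster led by Vwf, Adgrg6 and Gja5, where Emcn was at 136, and 879 in the venous endothelial-like cluster, against 103 to 299 in the other 7. Cd34 was at 816 in the capillary endothelial-like cluster and at 95.3 and 77.5 in the sinusoidal and venous endothelial-like clusters.

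Emcn was highest in the endocardial-like cluster, at 758 CPM, where Cldn5, Esam, F11r and Tjp1 were each at or near their lowest. Ocln was found in cluster 4, at 54.5 from 324 UMIs, and at 19 in the endocardial-like cluster, against 52.2 in an epithelial-like cluster led by Cldn7 and Epcam and 0.92 in the capillary endothelial-like cluster. Pecam1 was highest in the arterial endothelial-like cluster, 1362, and lowest in the interferon-gene cluster, 452. The clusters also differed in the groups they held. Of their hashtagged cells, 57 of 61 in the interferon-gene cluster were iSuRe-Cre heart and 401 of 410 in the sinusoidal one iSuRe-Cre liver. The arterial one held 13 iSuRe-Cre heart and 3 iSuRe-Cre liver cells of 79. The part of the groups in the cluster levels was not tested. Egfl7 (1.79-fold), F11r (2.14-fold) and Esam (2.61-fold) had the narrowest ranges over the 9 clusters and Cldn5 the widest of the 9 members with counts, 25.3-fold.

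**Figure D4:**
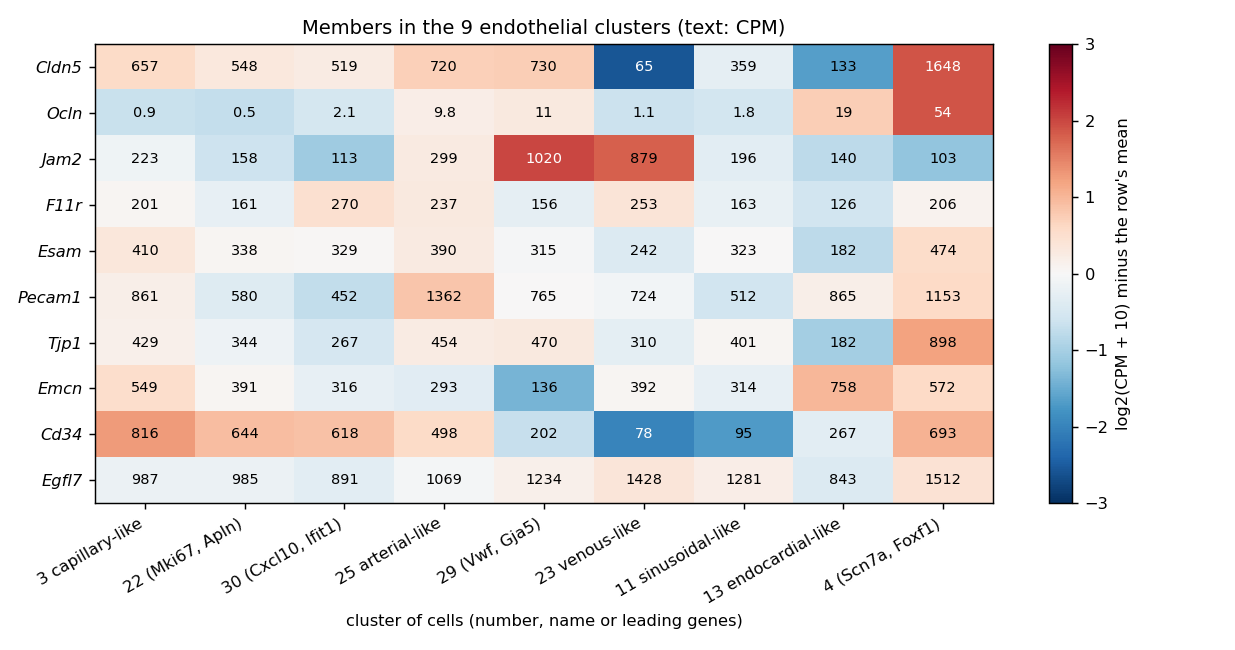
Levels of the 10 genes (rows) in the 9 endothelial clusters (columns), with CPM printed in each cell and the color giving log2(CPM + 10) minus the mean of the row. Jam2 is high in clusters 29 and 23, Cd34 is low in clusters 23 and 11, and cluster 4 is high in Cldn5, Tjp1 and Ocln.

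Over all 35 clusters with at least 50 cells, the genes most like each member in Pearson's r of log2(CPM + 10) were, for Pecam1, Cd93 (r = 0.99) and Tie1 (r = 0.98); for Cldn5, Icam2 (r = 0.94) and Esam (r = 0.94); for Esam, Ecscr (r = 0.99) and Icam2 (r = 0.98). They were Ptprb (r = 0.93) and Mmrn2 (r = 0.92) for Jam2, Cd151 (r = 0.92) and H2-Q4 (r = 0.92) for F11r and Lrrc58 (r = 0.95) and Ctnnd1 (r = 0.94) for Tjp1. For Emcn they were Ecscr (r = 0.97) and Esam (r = 0.96), for Cd34 Cav2 (r = 0.96) and Cav1 (r = 0.95), for Egfl7 Esam (r = 0.97) and Ctla2a (r = 0.97) and for Ocln Itga3 (r = 0.78) and Ccdc68 (r = 0.74). These clusters share a library and include endothelial and other cells. Within the 9 endothelial clusters the pairs ran from r = -0.62 (Emcn and Jam2) and -0.60 (Cd34 and Jam2) to 0.87 (Cldn5 and Esam) and 0.85 (Esam and Tjp1).

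Within clusters, CPM was compared without matching UMIs per cell. The lower Pecam1 CPM of iSuRe-Cre cells was present in most clusters that could be compared. The lower Cd34 CPM of iSuRe-Cre liver was not seen in the capillary or venous endothelial-like clusters. In the capillary endothelial-like cluster of heart (178 control, 163 iSuRe-Cre and 186 iSuRe-HadCre cells), Pecam1 was at 933, 639 and 1163 CPM, which gave iSuRe-Cre over control at 0.685 (0.64 to 0.733). Tjp1, at 0.625 (0.567 to 0.689), Jam2, at 0.624 (0.545 to 0.715), Cldn5, at 0.77 (0.715 to 0.829), Esam and F11r were lower there as in the whole group, and Cd34, at 1.2 (1.12 to 1.29), and Egfl7, at 1.23 (1.16 to 1.31), were higher. The same cluster of iSuRe-HadCre heart was higher than control in CPM of Pecam1, at 1.25 (1.16 to 1.34), Cd34, at 1.49 (1.38 to 1.61), Emcn, at 1.33 (1.21 to 1.47), and Jam2, at 1.29 (1.12 to 1.47), where the whole groups gave 1.02, 1.17, 1.08 and 1.11. Its 186 cells gave 1545 UMIs of Pecam1 against 1733 in 178 control cells and 1642 in 163 iSuRe-Cre cells. Against control they gave 826 and 865 UMIs of Emcn, 424 and 461 of Jam2 and 1313 and 1230 of Cd34. Pecam1, Emcn and Jam2 were thus not higher per cell than in control. Of the genes lower in the whole iSuRe-HadCre heart group, Cldn5 was lower there too, at 0.867 (0.796 to 0.944), but stood at 1.5 (1.19 to 1.89) in the cluster led in part by cell-cycle genes and 1.16 (0.915 to 1.46) in the arterial endothelial-like cluster. Esam stood at 0.942 (0.846 to 1.05), 0.858 (0.646 to 1.14) and 0.7 (0.512 to 0.954) in these 3 clusters. In the cluster led in part by cell-cycle genes (75 iSuRe-Cre and 12 control cells), Pecam1 was again lower for iSuRe-Cre, at 0.767 (0.649 to 0.911), while Cldn5 stood at 1.12 (0.93 to 1.37). In the arterial endothelial-like cluster (13 iSuRe-Cre and 23 control cells) it was Cldn5 that was lower, at 0.416 (0.305 to 0.564), while Pecam1 stood at 0.96 (0.809 to 1.14).

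In liver only small sets of like cells could be compared. Pecam1 in the venous endothelial-like cluster was at 1181 CPM in 11 control cells, 676 in 106 iSuRe-Cre cells and 890.3 in 13 iSuRe-HadCre cells, with iSuRe-Cre over control at 0.572 (0.468 to 0.706) and iSuRe-HadCre over control at 0.754 (0.57 to 0.998). In the Vwf and Gja5 cluster it was at 1331 in 13 control and 659 in 56 iSuRe-Cre cells, a ratio of 0.495 (0.402 to 0.613), and in the capillary endothelial-like cluster the ratio was 0.845 (0.653 to 1.09), an interval that held 1. Jam2, lower in iSuRe-Cre liver as a whole, was higher in the Vwf and Gja5 cluster, at 1.52 (1.16 to 2.01). Cd34 in the capillary endothelial-like cluster of liver was at 546, 875 and 885 in 11 control, 12 iSuRe-Cre and 13 iSuRe-HadCre cells, so that iSuRe-Cre was the higher, at 1.6 (1.16 to 2.24), where the whole group gave 0.354. It was 1.29 (0.483 to 4.89) in the venous endothelial-like cluster, on 4 control UMIs, and 0.64 (0.418 to 1.02) in the Vwf and Gja5 cluster. In the 401 sinusoidal endothelial-like cells of iSuRe-Cre liver Cd34 was at 66.8, and control liver had no such cells to set beside them. Jam2 in that capillary cluster was at 278, 152 and 264 in liver and 248, 155 and 319 in heart, and its liver over heart ratio was 1.12 (0.736 to 1.64) in control cells against 2.08 for the whole groups.

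**Figure D5:**
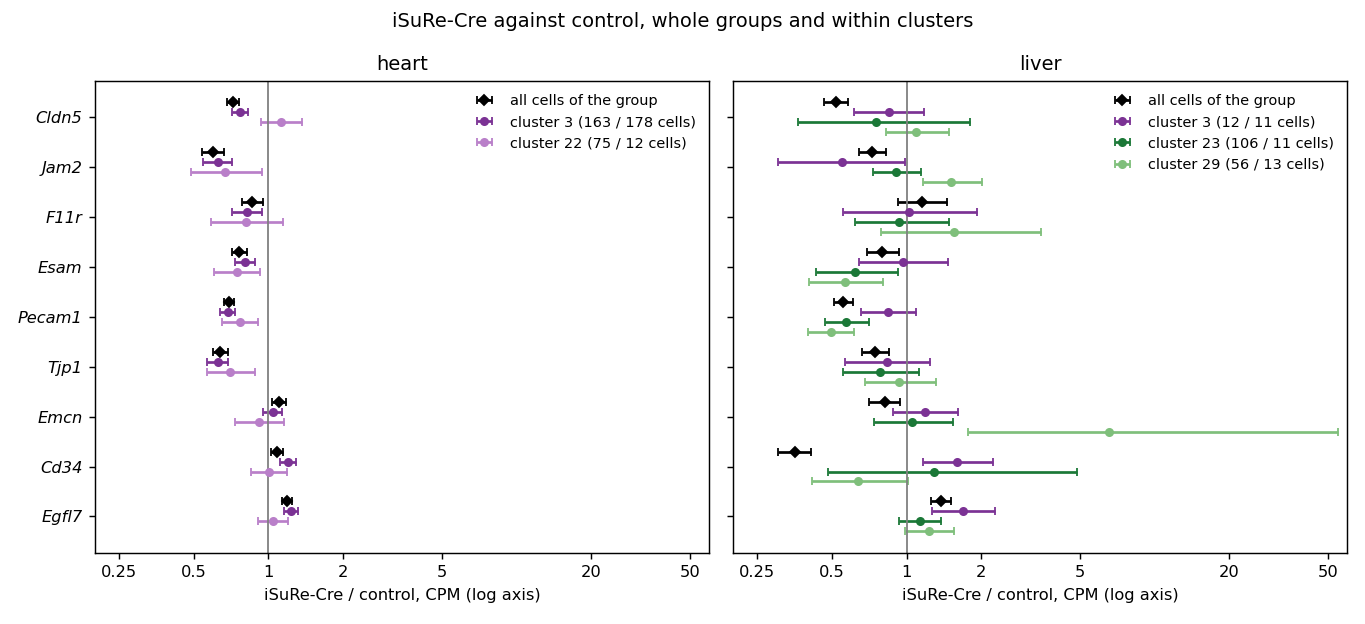
Ratio of iSuRe-Cre to control CPM (x axis, log scale) in whole groups (black) and within clusters (colors, with the numbers of iSuRe-Cre and control cells in the key), for heart and liver, with exact conditional 95% intervals for counting error. In heart the black and the cluster 3 points lie close together for each gene; in liver the Pecam1 points of clusters 23 and 29 lie with the whole group and the Cd34 point of cluster 3 lies on the other side of 1, and the widest interval, for Emcn in cluster 29, rests on 2 control UMIs.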

How the data were processed

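The labels name hearts and livers for 1 10x Genomics gene expression library and its hashtag library. The clusters of all barcodes also included keratinocyte and epithelial-like, chondrocyte-like and neural-like cells and a cluster led by Sftpc and Ager. Whether barcodes without a hashtag came from other tissues was not tested. The authors ran Cell Ranger 7.1.0 and Seurat on GRCm38 (mm10) with transgene sequences added, and deposited raw UMI counts per barcode. The 10 genes and all gene lists were chosen with earlier results of these data known. Kept barcodes had 2000 to 75000 gene UMIs, more than 500 genes and mitochondrial and haemoglobin shares below 5%, which left 14348; a group needed at least 25 UMIs of its own hashtag (140 for HTO302), other hashtags below their minima and ln(1 + 10000 x Cdh5 share) above 0.9. The 186 barcodes with several hashtags were left out; doublets within a group were kept and no caller was run. The submitters' BC numbers were taken as the HTO numbers of the files.

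Counts were summed per group and divided by total UMIs. With 1 sample per group no test was possible: intervals are exact Poisson, binomial and conditional 95% intervals (scipy 1.17.1, Python 3.11.15), and the code was tested on simulated data. Genes outside the list were named when both iSuRe groups of a tissue shared a call or when they lay furthest apart between tissues. Clusters came from scanpy 1.11.5 and leidenalg 0.10.2 (2000 variable genes, 30 components, resolution 1). The limit of 80% for endothelial clusters and the minimum of 10 cells for values within clusters were chosen after seeing the data. Alternatives changed the hashtag calls (doubled minima, or HTODemux in Seurat 5.3.0), the Cdh5, WPRE and haemoglobin limits, cell weights, scaling, free RNA, the cells with most UMIs, the value added and the minimum count. The paper also removed cells with log-normalized WPRE of 0.5 or less, which the main setting did not. Asked of the iSuRe groups, that limit kept 145 iSuRe-Cre and 292 iSuRe-HadCre heart cells. In liver it kept 379 and 66. It put 4 of 81 ratios on the other side of 1.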

Additional observations from a re-analysis of the deposited data

Results flagged for a closer look

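Ratios on opposite sides of 1, each with an interval that left out 1, were found for 3 genes; the differences between the ratios were not tested. Cd34 stood at 1.08 of control in iSuRe-Cre heart and at 0.354 in iSuRe-Cre liver. Emcn stood at 1.10 in iSuRe-Cre heart and 0.817 in iSuRe-Cre liver, and at 1.06 in liver with HTODemux calls. Tjp1 stood at 1.24 for liver over heart in iSuRe-Cre cells and at 0.874 (0.7617 to 0.9995) in iSuRe-HadCre cells. These are ratios of CPM. Per cell the Tjp1 ratios were 0.705 and 0.787, both below 1, where all UMIs per cell stood at 0.57 and 0.901. Per cell, iSuRe-Cre over control was 1.73 in heart and 0.333 in liver for Cd34. For Emcn it was 1.76 and 0.77, so these genes stayed on opposite sides of 1.

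Cells without a hashtag by the UMI minima entered no comparison in the main setting. HTODemux called hashtags for more cells, and those of cluster 4 in the groups went from 43 to 234 (5 to 24 in control liver) in the setting in which the most ratios lay on the other side of 1; their part in those ratios was not tested. In the cells without a hashtag of cluster 4, the unnamed cluster led by Scn7a, Tmem100 and Foxf1, 8 of the 10 genes were above both control groups. Cldn5 was at 1681, Egfl7 at 1546, Pecam1 at 1150 and Tjp1 at 915 CPM. Cd34 was at 703, Emcn at 577, Esam at 483 and Ocln at 55.8. The tissue of these cells is not known from a hashtag.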

How the results depend on the processing

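No paired analysis was possible because each group is 1 sample. Counts of members at least 2-fold apart changed as follows. iSuRe-Cre against control liver (1, Cd34) gave 3 with Cdh5 above 1.5 (Pecam1, Cldn5 and Cd34), 2 with the mean of per-cell shares (Pecam1 and Cd34) and 0 in the venous endothelial-like and Vwf and Gja5 clusters. iSuRe-HadCre against iSuRe-Cre liver (1, Cd34) gave 2 with HTODemux (Cldn5 and Cd34) and 0 in those clusters. Control liver against heart (1, Jam2) gave 0 with doubled hashtag minima, HTODemux, median of ratios scaling and the 9 endothelial clusters, where the ratio was 2.02. iSuRe-HadCre liver against heart (0) gave 1, Jam2, with doubled minima, the WPRE limit, haemoglobin below 1%, free RNA subtracted, 1 CPM added and the endothelial clusters. iSuRe-HadCre against iSuRe-Cre heart (0) gave 1, Jam2, in the endothelial clusters. The cluster settings were chosen after seeing the data. HTODemux kept 3083 cells, 230 of them control liver, and put 17 of 81 ratios on the other side of 1. Median of ratios scaling put 11 there and removed shifts of the all-gene median of up to 0.14 on the log2 scale. Depth limits Ocln, and 54 control liver cells limit the comparisons that use them. The spread between animals is unknown, so no interval covers it.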
